A study of Danio rerio with 96 samples.

Results

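DNA methylation was compared between glucocorticoid receptor (GR) mutant and wild-type zebrafish larvae that had received no glucocorticoid. Of 96 libraries in the study, 48 were used, those labelled GR mutant control (24) and GR wild-type control (24). Every library held DNA from 1 dissected larval head at 5 days post-fertilisation, and both groups had been kept in 0.2% ethanol, the vehicle of the drug given to the other libraries of the study. The labels name the mutant only as GR mutant. They give no allele, zygosity, clutch or plate. Each library was treated as 1 larva, and p-values take account of the spread among these libraries alone.

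GR is a nuclear receptor that binds cortisol, moves to the nucleus and switches target genes on or off. Cortisol is the main glucocorticoid of fish, and larvae that lack a working GR are known for a stress axis that is not held back by cortisol. In vertebrates methyl groups sit mainly on cytosines of CpG dinucleotides, most CpGs of the genome carry them, and regulatory regions that are in use are often less methylated. Bisulfite turns unmethylated cytosine into a base read as T, so the share of reads with C at a position is its methylation level.

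Target regions were amplified by PCR from bisulfite-treated DNA, with 100 pg of input and 40 cycles in the first PCR for every library. A run of cytosines counted as an amplicon where 48 or more of the 96 libraries covered it with 30 or more reads each, which gave 8 amplicons with 50 CpGs. A CpG level entered for a larva with at least 30 reads there. All 50 CpGs could be tested. An amplicon level is the methylated share of the reads summed over its CpGs, in larvae with every CpG measured. Positions are 1-based on build GRCz10, and genes and sequences are not given for want of an annotation or genome of that build. Names of amplicons follow the chromosome. They are chr2 (chr2:14499688-14499886, minus strand, 10 CpGs), chr3 (chr3:25887983-25888164, 6 CpGs) and 3 regions of chromosome 6. The latter are chr6-a (chr6:27961540-27961753, 4 CpGs), chr6-b (chr6:41099247-41099469, 4 CpGs) and chr6-c (chr6:49743949-49744115, 5 CpGs). The rest are chr8 (chr8:22488700-22488907, 3 CpGs), chr15 (chr15:4079178-4079402, 13 CpGs) and chr16 (chr16:8404129-8404240, minus strand, 5 CpGs).

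Depth was similar for whole libraries and unequal for single amplicons. Cytosine calls per library ran from 84593 over a median of 1260744 to 2009599 in wild type and from 358210 over 1240633 to 1695694 in mutants (two-sided permutation p = 0.325). Of the 8 amplicons, 3 (37.5%) differed in the median reads per CpG of a larva, chr3 and chr6-b and chr6-c, each deeper in mutants (permutation test of log10 reads, adjusted p = 0.00128, 0.00216 and 0.0388). The median was 135.75 reads in wild type and 3701.75 in mutants at chr3, 3311.75 and 7926.75 at chr6-b, and 7999.5 and 8010.5 at chr6-c. Many libraries at chr6-c lay near 8000 reads, close to the highest count of 8088. Non-CpG methylation, which includes cytosines that bisulfite failed to convert, was 1.95% ± 0.638 (SD, n = 24) in wild type and 1.34% ± 0.647 (SD, n = 24) in mutants (two-sided permutation p = 0.00203). This level pools the reads of all amplicons, and it exceeded 2% in 10 of 24 wild-type and 5 of 24 mutant libraries. Results without libraries over 2% therefore rest on fewer larvae, with more removed from wild type. Means were 2.71% and 1.63% at chr15 and 2.28% and 1.43% at chr6-c, wild type first. Mutants were slightly higher at chr3 (1.22% and 1.29%) and chr6-a (1.21% and 1.30%), and lower at the other amplicons. The pooled reads include chr15 cytosine 4079297, with medians of 14.1% in wild type and 5.79% in mutants. Some larvae of 1 genotype matched closely at an amplicon (mean squared difference over CpGs under 4 times the sampling variance). Of pairs compared, 27 of 552 matched at chr6-c, 27 of 276 at chr16, 6 of 7 at chr6-a and 5 of 11 at chr8. At chr6-b 11 of 447 matched, at chr3 10 of 181, at chr15 5 of 484 and at chr2 3 of 133. Wild-type libraries 1, 13, 14 and 15 lay close together at chr8 (55.4% to 55.9%), chr6-a (96.8% to 97.1%) and chr16 (45.1% to 45.9%). These libraries also lay close together at chr6-b (68.1% to 68.9%). Picked after their levels were seen, they ran from 38.1% to 94.5% at chr15 and from 53.9% to 88.5% at chr6-c. They were not the only such set. Wild-type libraries 2, 16 and 17 had 65.8%, 66.0% and 65.7% at chr6-b and 32.0%, 33.5% and 32.5% at chr16. At chr15 these libraries had 38.8%, 59.4% and 55.7%. The main tests counted every library. Results were repeated with matching libraries counted once. That merged away 18 libraries at chr6-c, 17 at chr16, 10 at chr6-b and 7 at chr3. It merged away 4 at chr15, 3 at chr6-a, 3 at chr8 and 2 at chr2.

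Chr6-c was less methylated and chr6-b and chr3 were more methylated in mutants than in wild type. These 3 amplicons are 37.5% of the 8 tested (25% higher, 12.5% lower) by a beta-binomial likelihood ratio test with Benjamini-Hochberg adjusted p below 0.05. The largest difference lay at chr6-c. There the wild-type larvae ran from 50.3% over a median of 87.3% to 95.9%, and the mutants from 14.5% over 40.0% to 93.3%. The ranges overlapped, but 17 of 24 mutants were lower than the lowest wild-type larva. The means were 78.1% ± 16.5 (SD, n = 24) and 45.9% ± 23.3 (SD, n = 24). They differed by -32.2 percentage points (SE 5.82, adjusted p = 3.37e-05). Wild-type larvae fell into separate clusters at this amplicon, 7 between 50% and 60%, 0 between 60% and 75%, and 17 above 75%. Mutants filled the range below as well, with 17 under 50%, of which 7 were under 30%, and 4 above 75%. Level went partly with depth in wild type. The 4 wild-type larvae with fewer than 1000 reads had a median of 54.7%. The 20 deeper ones ran from 51.6% over a median of 88.4% to 95.9%. The read-weighted level of all 96 libraries was 57.1% at this amplicon. The part of depth in the wild-type clusters was not tested. Among larvae with at least 1000 reads the means were 81.8% (n = 20) and 45.6% (n = 23), a difference of -36.2 (SE 5.94). The non-CpG level of chr6-c was 2.28% ± 0.558 (SD, n = 24) in wild type and 1.43% ± 1.33 (SD, n = 24) in mutants, and its part in the difference was not tested.

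At chr6-b the groups were narrow and shifted against each other. Wild-type larvae lay between 63.7% and 74.95% with a median of 68.7%, and mutants between 59.2% and 84.2% with a median of 75.6%. Of the 24 mutants, 23 were above the wild-type median, 13 were above 75% and so above every wild-type larva, and 1 (mutant library 23) was below all of them. The difference of means was 5.82 percentage points (SE 1.21, adjusted p = 3.37e-05). All mutants had at least 1000 reads there, and against the 17 wild-type larvae at that depth the difference was 5.53 (SE 1.35).

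At chr3 wild-type larvae ran from 40.7% over a median of 62.0% to 68.7%, and mutants from 52.9% over 68.9% to 89.8%. The ranges overlapped, with 1 wild-type larva (library 2) below every mutant and 13 of 23 mutants above the highest wild-type larva. The difference of means was 10.3 percentage points (SE 2.64, n = 22 and 23, adjusted p = 0.000452). Depth was unequal here, since 19 of the 22 wild-type larvae had fewer than 1000 reads there. The call was lost when runs of 4 neighbouring library numbers were averaged (difference 9.89, adjusted p = 0.0693).

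**Figure D1:**
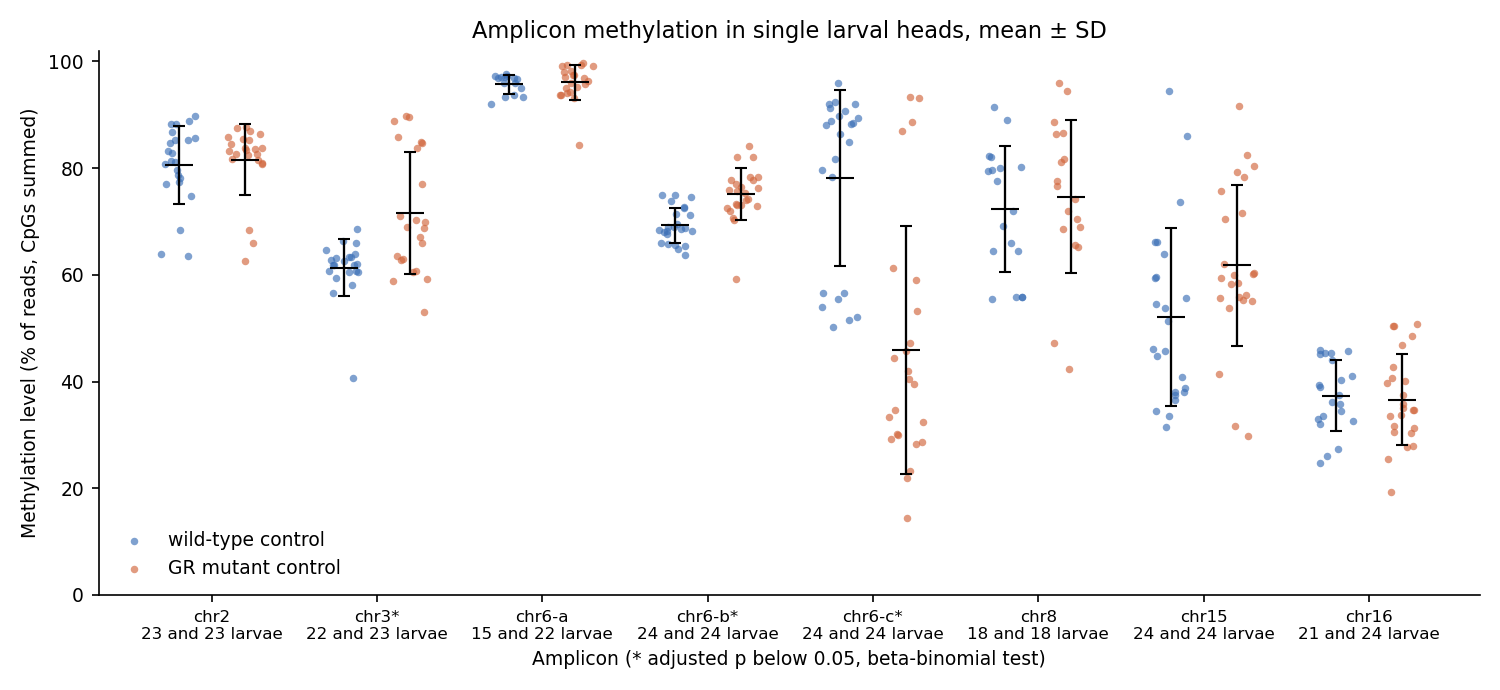
Methylation level in percent (y axis) of each larva (points) at the 8 amplicons (x axis), wild-type controls in blue and GR mutant controls in orange, with mean ± SD. At chr6-c 17 of 24 mutants lie below the lowest wild-type larva, and at chr6-b 13 of 24 lie above the highest.

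The other 5 amplicons did not pass. At chr15 wild-type larvae ran from 31.5% over 48.7% to 94.5% and mutants from 29.9% over 59.6% to 91.7%. Both groups spanned nearly the same range, yet 21 of 24 mutants exceeded the wild-type median (difference 9.69, SE 4.61, adjusted p = 0.150). Its highest larva, wild-type library 1, also stood apart at a non-CpG cytosine of this amplicon, and without that library the difference was 11.5 (adjusted p = 0.0211). At chr2 the means were 80.6% ± 7.35 (SD, n = 23) and 81.6% ± 6.68 (SD, n = 23), at chr6-a 95.7% ± 1.81 (SD, n = 15) and 96.1% ± 3.32 (SD, n = 22). At chr8 they were 72.3% ± 11.8 (SD, n = 18) and 74.6% ± 14.3 (SD, n = 18), and at chr16 37.3% ± 6.66 (SD, n = 21) and 36.6% ± 8.45 (SD, n = 24), wild type first. Differences at these amplicons were within 2.37 percentage points in size, with SEs from 0.848 to 4.38. Chr8 passed once libraries over 2% in non-CpG methylation were removed (12.4, adjusted p = 0.0137) and chr16 by the read-weighted quasi-binomial F test (-5.11, adjusted p = 0.0272).

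Single CpGs showed where within the amplicons the genotypes differed. Of 50 CpGs, 18 (36%) passed the same test, with mutants higher at 11 (22%) and lower at 7 (14%). Without adjustment 21 had p below 0.05. Counting those that did not pass, 35 were higher and 15 lower. The 5 CpGs of chr6-c passed together, each lower by 31.4 to 33.6 percentage points, and they carried nearly 1 measurement between them. Within a larva the highest and lowest of the 5 lay a median of 4.42 percentage points apart in wild type and 4.04 in mutants.

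At chr6-b, 3 of 4 CpGs passed, each higher in mutants. Position 41099291 ran from 77.7% over 85.9% to 94.9% in wild type and from 77.0% over 94.4% to 99.2% in mutants, and position 41099447, within 30 bp of the amplicon end, from 75.6% over 86.2% to 95.2% and from 69.4% over 95.5% to 98.7%. At both, 23 of 24 mutants exceeded the wild-type median (differences 6.67, SE 1.25, and 7.90, SE 1.45; adjusted p = 7.5e-06 and 3.43e-07). The third, 41099420, moved from 93.2% ± 1.93 (SD, n = 24) to 95.2% ± 2.71 (SD, n = 24), adjusted p = 0.00432, and lost its call under 3 of 13 alternatives (highest adjusted p = 0.102). Among larvae with at least 1000 reads its difference was 1.56 (SE 0.701, permutation p = 0.0449, unadjusted) against 1.94 over all larvae. The remaining CpG, 41099385, stood far below its neighbours in both genotypes. It ran from 0.164% over 9.48% to 39.6% in wild type, where 10 of 24 larvae were under 5%, and from 0.263% over 16.4% to 51.2% in mutants, where 6 of 24 were (difference 6.93, SE 3.75, adjusted p = 0.116).

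All 6 CpGs of chr3 were higher on average in mutants and 3 passed. Position 25888054 ran from 44.3% over 68.1% to 81.6% in wild type and from 42.1% over 82.9% to 89.6% in mutants, where 22 of 23 larvae exceeded the wild-type median (difference 15.3, SE 2.95, adjusted p = 1.22e-05). Position 25888127 ran from 58.7% over 92.5% to 98.6% and from 90.9% over 97.2% to 98.4% (difference 5.47, SE 1.74, adjusted p = 0.00266). The least methylated CpG, 25888047, ran from 0.934% over 24.1% to 35.5% in wild type and from 2.35% over 45.2% to 86.1% in mutants. Here 15 of 23 mutants were above every wild-type larva (difference 24.8, SE 5.76, adjusted p = 0.00383), a call lost with run means (adjusted p = 0.0637). In 7 mutant larvae 25888047, 25888039 and 25888068 were all above 70%, against 0 of 23 wild-type larvae. Depth was unequal in this count. Of these 7 mutants 1 had fewer than 1000 reads at 25888047 (median 8009), against 20 of the 23 wild-type larvae (median 141). In these 7 larvae 25888047 lay between 72.5% and 86.1%, and in the other 16 mutants between 2.35% and 58.3%.

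**Figure D2:**
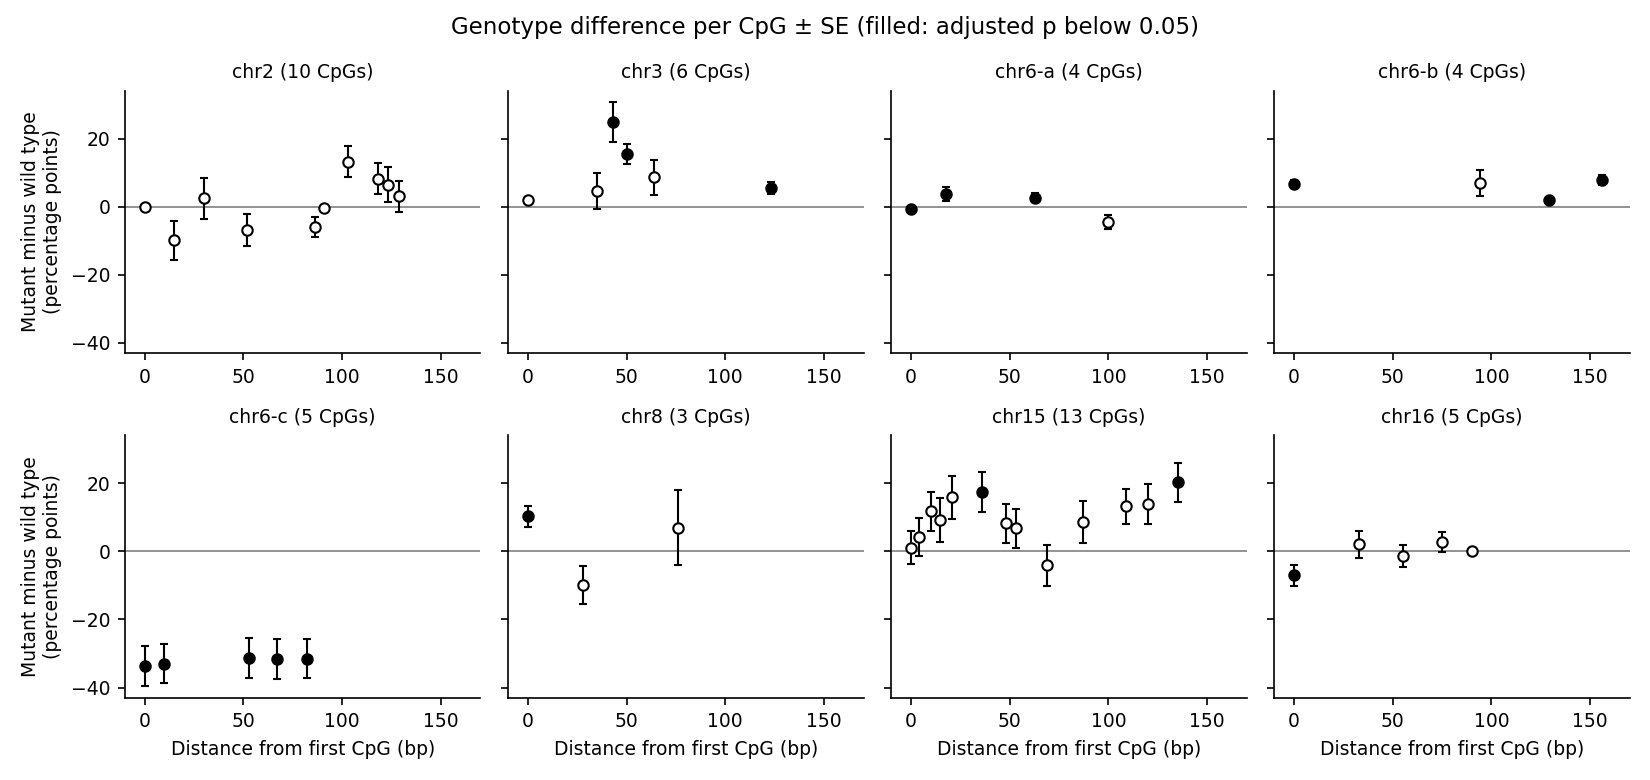
Difference in methylation, mutant minus wild type in percentage points with its SE (y axis), for each CpG by distance in bp from the first CpG of its amplicon (x axis), with filled points for adjusted p below 0.05. The chr6-c CpGs lie together between -33.6 and -31.4, and the chr3 differences peak at 24.8.

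At chr15, 12 of 13 CpGs were higher in mutants and 2 passed. Position 4079376, within 30 bp of the amplicon end, ran from 26.2% over 40.9% to 94.6% in wild type and from 27.9% over 61.1% to 94.1% in mutants, with 21 of 24 mutants above the wild-type median (difference 20.3, SE 5.72, adjusted p = 0.00432). Position 4079277 ran from 19.5% over 39.0% to 94.6% and from 28.4% over 63.8% to 93.3%, with 22 of 24 above (difference 17.5, SE 5.90, adjusted p = 0.0315). This second call was lost when matching libraries entered once (adjusted p = 0.0735), with libraries over 2% in non-CpG methylation removed (adjusted p = 0.0839), or without either wild-type library 12 or mutant library 22 (highest adjusted p = 0.0542). The chr15 CpG that moved the other way, 4079310, had means of 45.7% ± 19.8 (SD, n = 24) and 41.6% ± 22.0 (SD, n = 24) and did not pass.

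On chr8 only 22488753 passed. It ran from 63.4% over 79.9% to 98.9% in wild type and from 64.5% over 88.8% to 98.4% in mutants (difference 10.2, SE 3.11, n = 18 and 18, adjusted p = 0.0147). Wild-type libraries 1, 13, 14 and 15, which lay close together at chr8, had 64.1%, 66.2%, 64.6% and 65.2% there, near the wild-type minimum. By the read-weighted test the difference was -0.275 (adjusted p = 0.948), and run means gave no call (adjusted p = 0.187). Position 22488753 kept its call in 8 of 13 alternatives. Its neighbour 22488829 covered almost the whole scale in both genotypes, from 2.02% to 96.1% and from 5.68% to 95.1%, with 8 of 18 wild-type and 5 of 18 mutant larvae under 25%. On chr16, 8404150 near the amplicon end was lower in mutants, from 33.2% ± 8.94 (SD, n = 21) to 26.2% ± 11.4 (SD, n = 24), difference -7.02 (SE 3.04, adjusted p = 0.0255). It did not pass by the permutation test of equally weighted larvae (adjusted p = 0.0654) or when matching libraries entered once (difference -3.24, adjusted p = 0.372).

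At chr6-a, where nearly all reads were methylated, 3 of 4 CpGs passed with small differences. Position 27961568 was higher in mutants by 3.65 (SE 2.00, adjusted p = 0.0199; 2.28 without wild-type library 7) and 27961613 by 2.69 (SE 1.19, adjusted p = 0.0240), while 27961550 was lower by 0.565 (SE 0.488, adjusted p = 0.0433; -0.291 without mutant library 1). These were the least stable calls, each lost under 7 alternatives, and the last was also lost on leaving out any of 20 single libraries. On chr2 none of 10 CpGs passed by the beta-binomial test. The smallest p belonged to 14499800, with a median of 95.4% in wild type and 98.2% in mutants (difference of means 13.2, SE 4.62, unadjusted p = 0.0788, adjusted p = 0.158). This amplicon also held the extremes of the 50 CpGs, 14499697 near its end with 0.00514% and 0.0149% and 14499788 with 99.7% and 99.3%, wild type first. The level at 14499697 was below the mean non-CpG level of chr2, 0.972% and 0.632%. At the end of chr16, 8404240 was also low, with 0.00619% and 0.0480%. The source of these low levels was not tested.

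Chr3 was deeper in mutants, so genotypes were also compared within classes of depth. Of the larvae with an amplicon level, 19 wild-type and 7 mutant larvae had fewer than 1000 reads, and 3 and 16 had more. Among the shallow larvae the means were 62.5% and 66.8%, a difference of 4.35 (SE 3.20, exact permutation p = 0.0816, adjusted p = 0.180 over 11 tests within depth classes). Among the deep larvae they were 54.3% and 73.8%, a difference of 19.5 (SE 7.49, n = 3 and 16, exact permutation p = 0.0248, adjusted p = 0.0908). Mutants were higher on average in both classes, and neither amplicon difference passed after adjustment. The chr3 CpGs called over all larvae were also compared within classes. They were picked from these same larvae, so their p-values within classes are no independent evidence. At 25888054 mutants were higher by 9.40 (SE 2.94, n = 20 and 7, exact permutation p = 0.0044, unadjusted) among shallow and by 34.2 (SE 3.94, n = 3 and 16, exact permutation p = 0.00826, unadjusted) among deep larvae. At 25888127 they were higher by 3.71 (SE 1.14, n = 19 and 7, exact permutation p = 0.00337, unadjusted) and by 12.9 (SE 12.6, n = 3 and 16, exact permutation p = 0.120, unadjusted).

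At 25888047 the depth classes of wild type did not overlap. The 3 deep wild-type larvae had 0.934%, 2.55% and 8.48% there, below all 20 shallow wild-type larvae, which lay between 13.3% and 35.5%. Deep mutants lay between 2.35% and 86.1%, and shallow ones between 21.1% and 72.5%. Mutants were higher by 11.2 (SE 6.796, n = 20 and 7, exact permutation p = 0.0293, unadjusted) among shallow and by 47.3 (SE 7.39, n = 3 and 16, exact permutation p = 0.0124, unadjusted) among deep larvae. Shallow larvae of both genotypes were also nearer to the average of the study. The root mean square distance of a larva's chr3 CpG levels from the read-weighted levels of all 96 libraries had a median of 9.42 percentage points in shallow and 25.8 in deep wild-type larvae, and of 10.03 and 17.0 in mutants. Over all amplicons and both genotypes, shallow larvae were nearer to that profile in 12 of 14 comparisons, of which 4 had a class of only 1 or 2 larvae, and in 10 of the 10 others. The part of this in the genotype difference at chr3 was not tested. At chr6-b and chr6-c the differences among larvae with at least 1000 reads, 5.53 and -36.2, compare with 5.82 and -32.2 over all larvae.

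**Figure D3:**
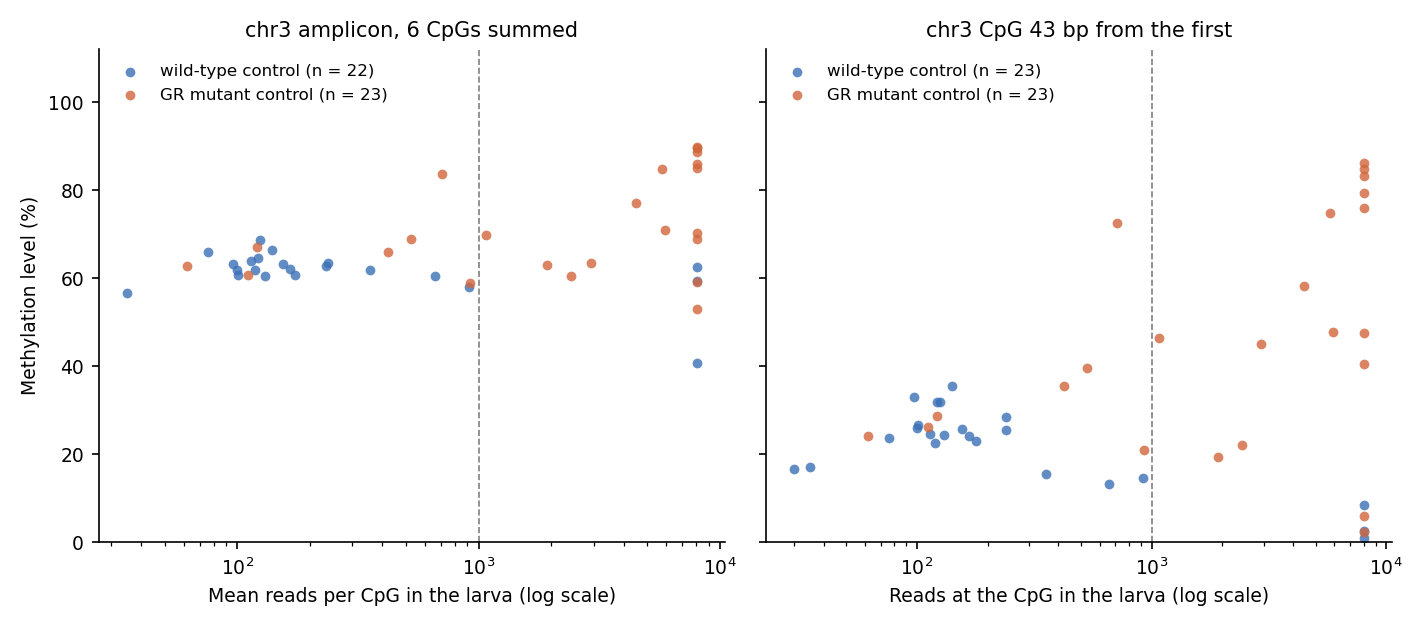
Methylation level in percent (y axis) against reads on a log scale (x axis) for single larvae, for the chr3 amplicon (left) and its CpG 25888047 (right), with the dashed line at 1000 reads. Most wild-type larvae lie left of the line, and the 3 deep wild-type larvae have the lowest levels of their genotype at 25888047.

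Levels in libraries of 1 genotype, 1 per larva, differed from each other far more than counting error allows at most CpGs. Over the 50 CpGs the median SD between larvae was 15.7 percentage points in wild type and 17.7 in mutants, against 1.12 and 0.842 expected from read counts alone. The SD was below the count expectation at 14499697 in both genotypes, and at 25888004 and 8404240 in wild type. That expectation covers counting error only, because PCR copies were read and molecular identifiers were not used. It leaves out the sampling of template molecules from 100 pg of input over 40 PCR cycles. The part of that sampling in the spread between larvae was not tested. The SD was larger in mutants at 36 of 50 CpGs, and the mean absolute deviation from the genotype median at 31 of 50. For the SD these were 6 of 10 CpGs at chr2, 4 of 6 at chr3, 2 of 4 at chr6-a and 4 of 4 at chr6-b. At chr6-c they were 5 of 5, at chr8 1 of 3, at chr15 9 of 13 and at chr16 5 of 5. CpGs of an amplicon are not independent, and these counts were not tested. Spread was tested as the mean absolute deviation of larvae from the median of their genotype, by two-sided permutation with 100000 resamples, and 2 of 50 CpGs (4%) and 1 of 8 amplicons (12.5%) passed.

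The amplicon was chr3, with a mean absolute deviation of 2.92 percentage points in wild type and 9.24 in mutants (adjusted p = 0.006). At its CpG 25888047 the values were 6.76 and 21.3 (adjusted p = 0.0035), so mutants were the more variable group. The depth gap described for chr3 runs in parallel, and its part in the spread was not tested. Both calls were lost with libraries over 2% in non-CpG methylation removed (adjusted p = 0.0747 and 0.0724), and the CpG call on the logit scale (adjusted p = 0.286).

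The other CpG, 14499800 on chr2, was more variable in wild type, with a mean absolute deviation of 14.5 against 1.98 percentage points (adjusted p = 0.0117). Wild-type larvae ran from 33.8% over 95.4% to 99.9% and mutants from 83.1% over 98.2% to 99.9%. The low values came from 4 of 23 wild-type larvae under 60%, and 0 of 23 mutants were that low. In 3 of these 4, 14499815 and 14499820 were under 60% as well, and in 2 of them 14499826 too. The call was lost when 100 reads were required (adjusted p = 0.121), with libraries over 2% in non-CpG methylation removed (adjusted p = 0.0724) and on the logit scale (adjusted p = 0.125). At chr6-c, where the SD was largest in mutants, mean absolute deviations of 12.5 and 17.1 did not pass (adjusted p = 0.510).

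Correlation between CpGs of an amplicon, across larvae of 1 genotype, separated the amplicons more clearly than the genotypes. The CpGs of an amplicon share molecules, PCR and library, so these coefficients are descriptions. At chr6-c the median Pearson's r over CpG pairs was 0.992 in wild type and 0.996 in mutants, where wild-type larvae lay in separate clusters of level. At chr2, over 8 of its 10 CpGs, it was -0.0764 and -0.0610. Between these lay chr15 with 0.680 and 0.519, chr16 with 0.645 and 0.603, and chr6-b with 0.304 and 0.281. Chr8 had -0.210 and 0.0373, and chr6-a had -0.124 and 0.155. Chr3 showed the widest gap between genotypes, 0.126 in wild type and 0.492 in mutants. Its median depth was 135.75 reads in wild type and 3701.75 in mutants. At 25888004 the wild-type SD, 2.88, was below the 3.16 expected from read counts, and at the other chr3 CpGs it was above that expectation. The part of depth in the chr3 coefficients was not tested.

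No amplicon passed when this difference was tested by permuting the genotype over larvae (0 of 8, 0%; 1 with an unadjusted p below 0.05). That 1 was chr3 (p = 0.0480, adjusted p = 0.384). With Spearman's rho in place of r, 1 amplicon passed, chr3 as well (adjusted p = 0.00048). At chr3 the pairs ran from -0.509 to 0.904 in wild type and from 0.0668 to 0.894 in mutants. The highest wild-type pair was 25888047 with 25888054, 7 bp apart, and the highest mutant pair 25888039 with 25888047, 8 bp apart.

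The chr2 amplicon was made of blocks. In wild type 14499815 and 14499820, 5 bp apart, had r = 0.998, and 14499712 and 14499727, 15 bp apart, had r = 0.938 (n = 23). In mutants 14499820 and 14499826, 6 bp apart, had r = 0.999 and the pair of 14499712 with 14499727 had r = 0.725 (n = 23). Many of the other pairs were near or under 0, down to -0.371 in wild type and -0.430 in mutants. In mutants 14499815 with 14499820 had r = -0.0890. Low values at these CpGs came from few larvae. At 14499815 and 14499820, 3 of 23 wild-type larvae were under 60%. At 14499820 and 14499826, 1 of 23 mutants was. At 14499815 the lowest mutant had 79.0%, around a median of 99.8%. A difference in blocks between genotypes therefore cannot be read from these pairs. At chr15 r ran from 0.409 to 0.986 in wild type, and the highest joined 4079251 and 4079361, which lie 110 bp apart. In mutants it ran from -0.0301, for 4079294 with 4079350, to 0.977. Over all amplicons pairs up to 20 bp apart had a median r of 0.755 in wild type and 0.593 in mutants. Pairs 21 to 50 bp apart had 0.524 and 0.404, and pairs over 50 bp apart 0.576 and 0.393. Wild-type medians thus did not fall steadily with distance. The medians pool amplicons that differ in r, and chr15 alone gave 78 pairs per genotype. They do not show how r changes with distance within an amplicon.

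**Figure D4:**
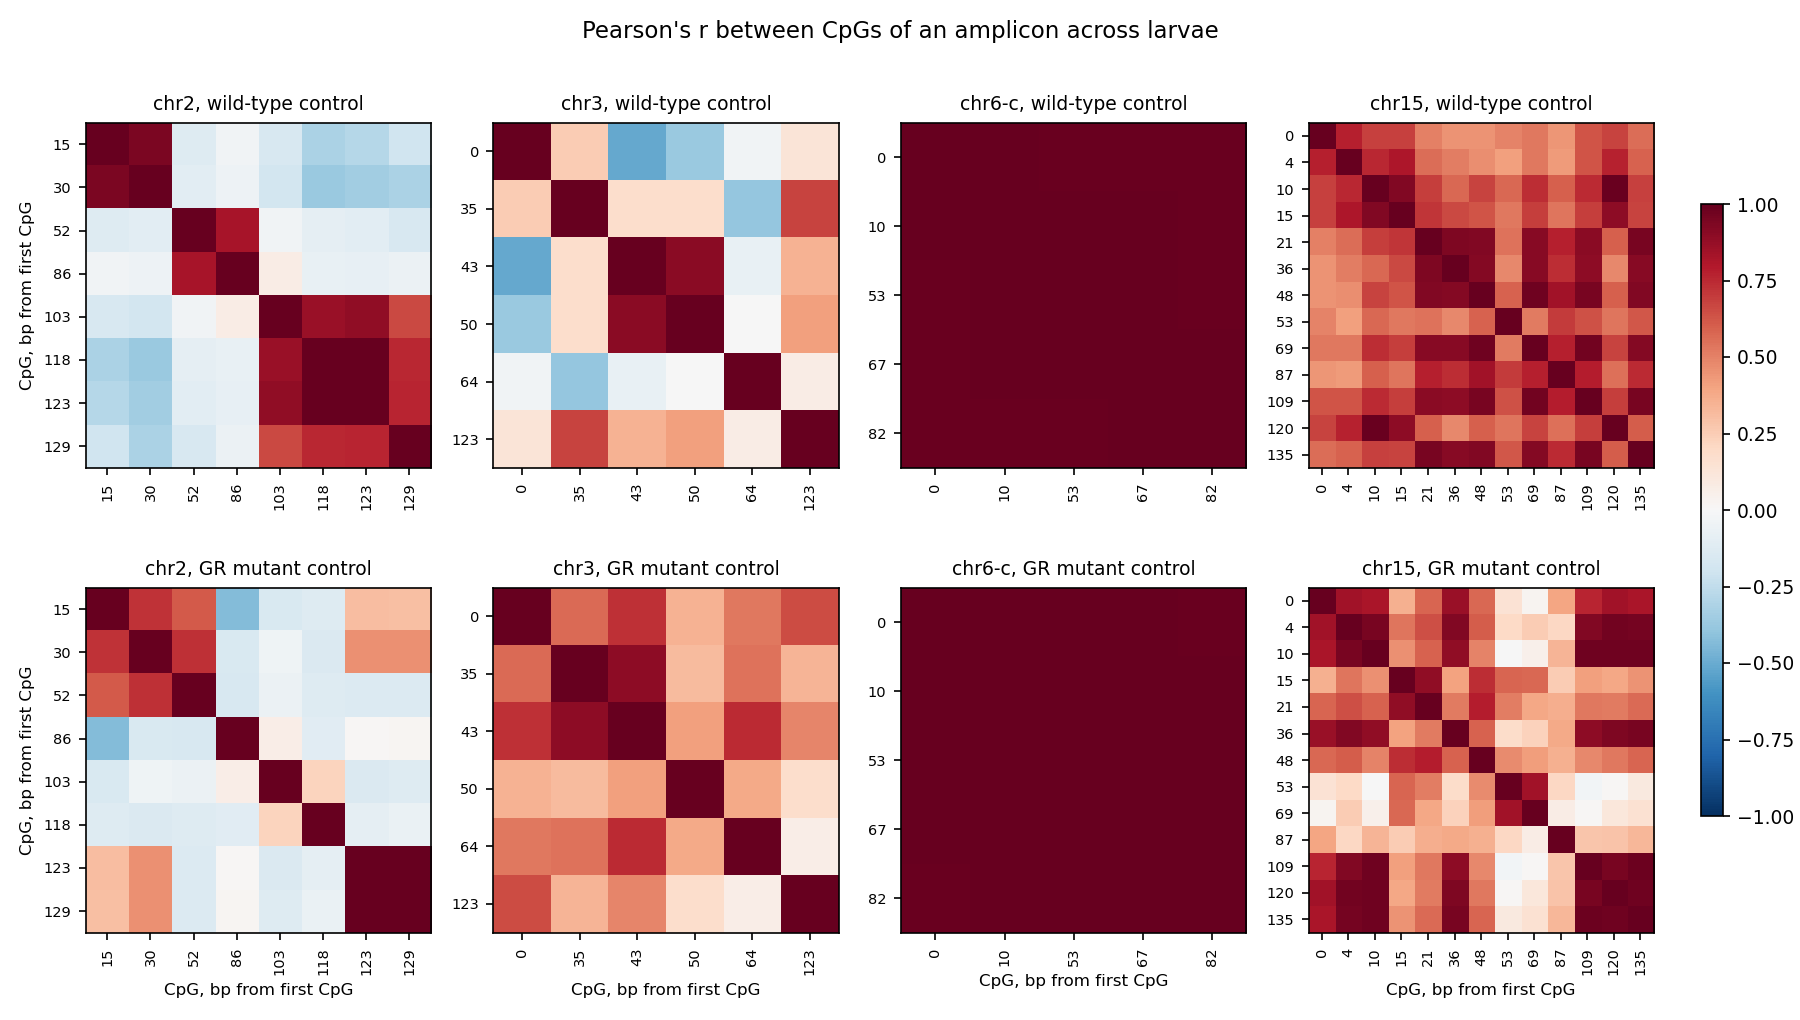
Pearson's r across larvae (colour, from -1 to 1) between CpGs of chr2, chr3, chr6-c and chr15, in wild-type controls (top) and GR mutant controls (bottom), with CpGs labelled by bp from the first CpG of the amplicon. Chr6-c is uniform, chr2 is split into blocks, and the chr3 median is 0.126 in wild type and 0.492 in mutants. Chr3 was deeper in mutants.

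Amplicon levels did not move together across larvae in a way that passed the test. Of 28 amplicon pairs 0 (0%) passed in wild type and 0 (0%) in mutants, by permutation tests of Pearson's r adjusted over the pairs of both genotypes, and 0 by Spearman's rho. Unadjusted p-values were below 0.05 for 1 pair in wild type and 2 in mutants. The largest coefficient in wild type joined chr6-b and chr8 (r = 0.476, permutation p = 0.0472; rho = 0.439, permutation p = 0.0715; n = 18). Its adjusted p was 0.853, and r was 0.546 without the 2 larvae farthest from the chr6-b median. In mutants the largest was between chr6-b and chr16 (r = -0.456, permutation p = 0.0244; rho = -0.454, permutation p = 0.0284; n = 24). Its adjusted p was also 0.853, and r was -0.238 without the 2 farthest larvae. The coefficients of pairs with chr6-c in wild type are not given, because the larvae fall into clusters there.

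The test of the difference between genotypes called 0 of 28 pairs (0%), with 0 at an unadjusted p below 0.05. The amplicons that were higher in mutants, chr3 and chr6-b, were not detectably correlated across mutant larvae (r = 0.226, permutation p = 0.311; rho = 0.176, permutation p = 0.418; n = 23; r = 0.0724 without the 2 farthest larvae; adjusted p = 0.967).

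**Figure D5:**
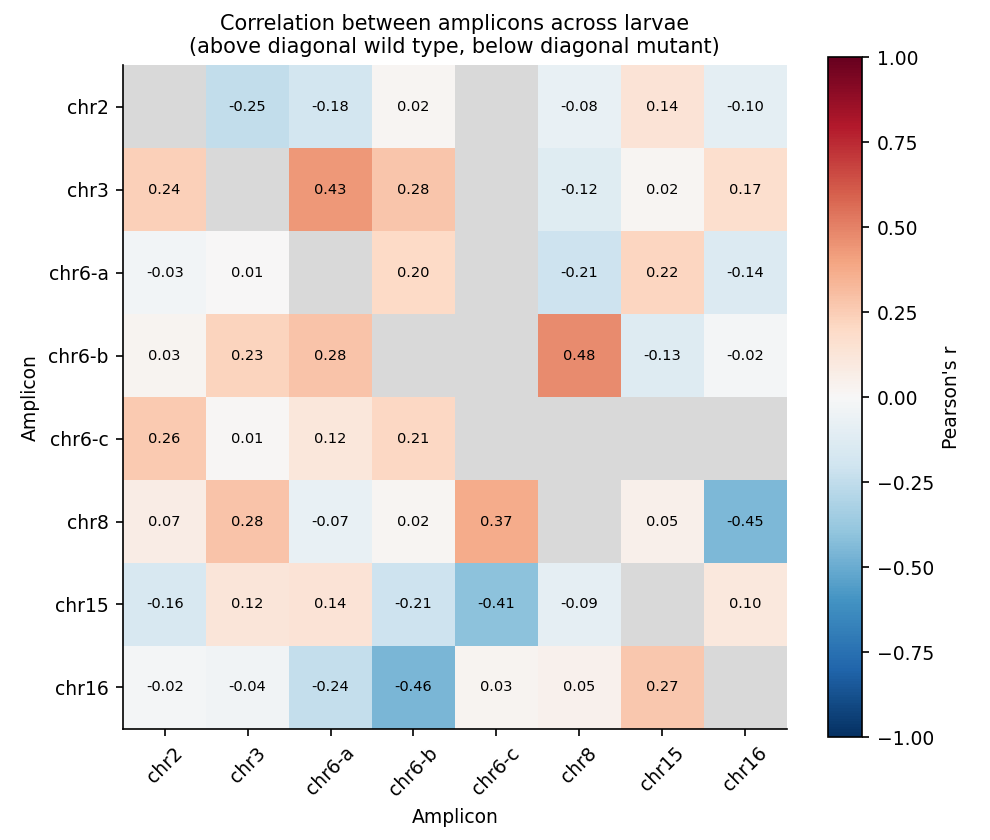
Pearson's r across larvae (colour and number) between amplicon levels, wild-type controls above the diagonal and GR mutant controls below it, with grey for the diagonal and for the wild-type pairs of chr6-c. The values reach 0.48 in wild type and -0.46 in mutants.

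At chr15 the files showed a second property that differed between genotypes. At cytosine 4079298, which is not a CpG, part of the reads that covered the amplicon gave no cytosine call. Their share ran from 2.27% over 12.5% to 91.1% in wild type and from 0.275% over 5.52% to 22.5% in mutants, and it exceeded 10% in 20 of 24 wild-type and 8 of 24 mutant larvae. The difference of means was -11.2 percentage points (two-sided permutation p = 0.00015). The non-CpG cytosine just before it, 4079297, had a level that followed this share within a median of 0.229 percentage points in wild type and 0.467 in mutants. The highest share, 91.1%, belonged to wild-type library 1, which also had the highest chr15 level, 94.5%.

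The share of uncalled reads was set against the chr15 level in each genotype. In wild type r was 0.582 (permutation p = 0.00600, adjusted p = 0.0120 over the 2 genotypes, n = 24) and rho was 0.265 (permutation p = 0.211, adjusted p = 0.318). Without the 2 larvae farthest from the median r was 0.00561, so the wild-type relation rested on those larvae. In mutants r was -0.0955 (permutation p = 0.657) and rho 0.211 (permutation p = 0.318), with r = 0.443 without the 2 farthest. The part of these reads in the CpG levels of chr15 was not tested.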

How the data were processed

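Genomic DNA of dissected heads was bisulfite treated, amplified with target primers, barcoded and sequenced, per the labels' protocols. The submitters' processing notes name FastQC, cutadapt, BS-Seeker2 and build GRCz10, their versions and settings being not given in the sources used here. Deposited files give, per cytosine, a methylation level as a fraction and the methylated and total read counts made by the authors. The fraction equalled the ratio of the deposited counts, and the counts were used. Reads per cytosine reached 8088.

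CpGs were tested with a minimum of 30 reads in at least 10 larvae of each genotype. Levels were compared by a beta-binomial likelihood ratio test with 1 dispersion for both genotypes. SEs are those of a difference of unweighted means. Spread, correlations, depth and non-CpG levels were tested by two-sided permutation over larvae (100000 resamples, or exact where stated). Benjamini-Hochberg adjustment ran over all CpGs, amplicons or pairs. The tests were checked on simulated data with larvae drawn independently of each other. The simulation held no matching libraries and no levels tied to depth, so it does not cover these features of the data. Libraries of 1 genotype with at least 500 reads at each CpG of an amplicon counted as matching where the mean squared difference of their levels was under 4 times its sampling variance. Alternatives changed the read minimum, libraries and CpGs kept, the test and the scale. Named CpGs are those past a threshold, the lowest and highest, and the CpG of smallest p in an amplicon without a call. Other named CpGs and pairs were chosen after their values were seen. The comparison and lists were chosen with earlier results of these data known. Computations used scipy 1.17.1, pandas 2.3.3 and numpy 2.4.6 under Python 3.11.15, and figures matplotlib 3.10.9.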

Additional observations from a re-analysis of the deposited data

Results flagged for a closer look

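Outside CpGs, 6 cytosines had a level in at least 1 mutant larva that was above 20% and above every wild-type larva. On chr2, 14499763 reached 62.0% in the highest mutant (426 reads) and exceeded 20% in 3 of 23 mutants, against a wild-type maximum of 1.15%. Position 14499751 reached 40.1% (1510 reads) in 1 mutant, against 6.25%. On chr6-a, 27961720 reached 33.8% on 65 reads, 27961670 reached 26.9% on 197 reads, 27961675 reached 22.4% on 321 reads and 27961641 reached 22.1% on 68 reads, each in 1 of 22 mutants. Wild-type maxima at these 4 lay between 3.55% and 7.29%. The median over mutants was at most 2.14% at each of the 6. High single values were not particular to mutants: of 157 non-CpG cytosines, 12 exceeded 20% in some larva, 6 in wild type and 7 in mutants, and 9 of them in 1 larva.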

How the results depend on the processing

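Chr6-b and chr6-c kept direction and call in 13 of 13 alternatives. With the beta-binomial test repeated on larvae with fewer than 1000 reads, 0 of 17 CpGs (4 unadjusted) and 0 of 3 amplicons passed, and for spread 1 of 17 and 0 of 3. Those features are chr2, chr6-a and chr8, since the others, chr3 included, had fewer than 10 such larvae in a genotype. For spread, 1 CpG passed at a minimum of 100 reads, 0 of 27 CpGs and 0 of 4 amplicons at 1000, 0 of 46 and 0 of 7 without libraries above 2% non-CpG methylation, 8 CpGs and 2 amplicons by a likelihood ratio test of dispersion, and 0 CpGs on the logit scale. Without those libraries 1 of 21 amplicon pairs, chr8 with chr16, differed in correlation (adjusted p = 0.0111), and with Spearman's rho 1 of 8 amplicons, chr3, differed in CpG-to-CpG correlation. The cause was not tested.

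Some differences changed sign, and none of the values listed next passed its test. Position 22488753 gave -0.275 by the quasi-binomial test. Chr6-a gave -0.193 at 100 reads, -0.881 without CpGs near ends and -0.115 by the quasi-binomial test. Chr8 gave -0.937 with matching libraries counted once, -1.62 under 1000 reads and -0.676 with run means. Chr16 gave 0.450 with matching libraries counted once and 0.334 without CpGs near ends. Spread differences without libraries above 2% non-CpG methylation were -1.02 at chr8 and 0.856 at chr15.

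Leaving out 1 library in turn gave 16 to 21 CpGs and 3 to 4 amplicons for levels, and 2 to 4 CpGs and 1 to 1 amplicon for spread. The 4 CpGs came without wild-type library 1. Library numbers did not pair the genotypes (24 pairs, r from -0.573 to 0.506, 8 above 0.1). With the number as a replicate block 15 CpGs and 3 amplicons passed, non-CpG methylation differed by -0.610, and chr6-a and chr8 gave -0.0621 and -2.61.

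Clutch and plate are not given, so they cannot be told apart from genotype. Reads limit chr6-a and chr8 most, with medians of 115 and 90.5 in wild type.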
